A study of Homo sapiens with 12 samples.

Results

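The genes described here are FLT3, its ligand FLT3LG and 6 further receptor tyrosine kinases, CSF1R, KIT, IGF1R, INSR, FGFR1 and AXL. They were chosen by gene name, 8 of the 57353 gene names in the counts table, of which 30572 had a count. Of these 8, FLT3, CSF1R, IGF1R, INSR, FGFR1 and AXL passed the filter on low counts and were among the 12998 genes tested, while KIT and FLT3LG fell below it and are given by their counts.

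Receptor tyrosine kinases span the cell membrane, bind a growth factor outside the cell and phosphorylate tyrosines inside it, which recruits adaptor proteins that pass the signal to RAS, PI3K and STAT proteins. FLT3, CSF1R and KIT belong to one class of these receptors and act in the growth and differentiation of blood progenitors and macrophages. In acute myeloid leukemia (AML), internal tandem duplications of FLT3 (FLT3-ITD) keep the receptor active without its ligand, and quizartinib (AC220) blocks that activity.

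RNA was sequenced from MOLM-13, an established line of human AML cells with FLT3-ITD, although the genotype field of its samples reads WT. The study asked how a medium conditioned by bone marrow stroma changes the response of these cells to inhibition of FLT3, with 4 groups of 3 libraries each. Cells were treated for 15 hr with vehicle (DMSO) or with 3 nM quizartinib, either in RPMI, the regular medium, or in hBMSC-CM, filtered medium from the human stromal line HS-5 mixed with an equal part of RPMI. All libraries came from this 1 line, and the replicates were described as biological in the study's reporting checklist. P-values measure only the spread between these samples.

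Total counts ranged from 19966546 to 31546104 per library, and mitochondrially encoded genes took 0.458% to 1.10% of them. A count of 3, the limit that a count of 0 allows, was worth 0.0951 to 0.150 CPM (the count scaled to a common library size), by counting error only. CPM values below were scaled by TMM and are given as mean ± SD over 3 libraries. They are relative to the other sequenced RNA, so rises and falls below are not amounts of RNA per cell. In a separate experiment, the paper reports lower RNA yields from cells treated with quizartinib. No library was a copy of another. Among 12 myeloid markers, 10 were tested, with summed levels of 1572 to 2886 CPM over all libraries, while CD68 and CD14 fell below the filter. Among 16 stromal markers, 6 had no count in any library (COL3A1, COL5A1, LUM, DCN, THY1 and POSTN). Their summed level was 3.86 to 4.43 CPM with vehicle and 11.2 to 13.7 CPM with quizartinib in RPMI, and 3.23 to 4.12 and 6.52 to 7.22 CPM in hBMSC-CM, so the sum was highest with quizartinib in RPMI and not higher in the conditioned medium, and its part in the results below was not tested. In bulk RNA, fewer cells that express a gene and less RNA of it per cell cannot be told apart, and counts per gene do not separate FLT3-ITD from wild-type FLT3 transcripts.

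Of the 6 members that passed the filter, FLT3, CSF1R, INSR and AXL rose with quizartinib in both media, and the 250 bases before their canonical start sites are shown because all 4 moved together there. The sequences are from RefSeq (GRCh38.p14), 5′ to 3′ on the strand of the gene. Capitals mark the E-box CACGTG, the motif bound by MYC and related factors. The windows are chr13:28100577-28100826 for FLT3, chr5:150086555-150086804 for CSF1R and chr19:7294415-7294664 for INSR, all on the minus strand, and chr19:41218973-41219222 for AXL on the plus strand.
FLT3: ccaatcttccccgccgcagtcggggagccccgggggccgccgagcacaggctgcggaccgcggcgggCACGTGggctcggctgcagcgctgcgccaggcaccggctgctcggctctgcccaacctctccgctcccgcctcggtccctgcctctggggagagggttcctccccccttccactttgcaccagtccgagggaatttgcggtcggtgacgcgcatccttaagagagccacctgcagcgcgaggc
CSF1R: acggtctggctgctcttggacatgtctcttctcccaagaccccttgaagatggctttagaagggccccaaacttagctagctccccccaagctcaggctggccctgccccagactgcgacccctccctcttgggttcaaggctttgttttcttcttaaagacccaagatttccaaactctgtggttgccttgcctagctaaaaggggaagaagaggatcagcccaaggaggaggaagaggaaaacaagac
INSR: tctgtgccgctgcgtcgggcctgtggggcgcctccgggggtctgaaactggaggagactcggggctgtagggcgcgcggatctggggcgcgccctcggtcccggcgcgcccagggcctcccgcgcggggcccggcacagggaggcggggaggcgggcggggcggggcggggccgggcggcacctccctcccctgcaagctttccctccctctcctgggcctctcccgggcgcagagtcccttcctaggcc
AXL: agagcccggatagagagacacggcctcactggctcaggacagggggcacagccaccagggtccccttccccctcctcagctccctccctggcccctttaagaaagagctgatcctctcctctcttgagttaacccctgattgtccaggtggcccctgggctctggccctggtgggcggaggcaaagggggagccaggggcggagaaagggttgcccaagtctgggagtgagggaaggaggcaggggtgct

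These letters were searched on both strands of windows of 300 bases, from 250 before to 50 after a start site, for the E-box CACGTG, the forkhead motif GTAAACA, the AP-1 motif TGANTCA, the STAT motif TTCNNNGAA and the ETS motif AGGAAGT. In the canonical windows, the E-box of FLT3, whose first base lies at -183 from the start, was the 1 match among these 4 receptors. CSF1R and AXL each have a further annotated start. The window there held an AP-1 match at -34 for CSF1R and a forkhead match at 10 for AXL. Which start the cells use was not tested. Over 35116 promoter windows, 7.26% held this E-box, 3.42% the forkhead, 7.71% the AP-1, 7.66% the STAT and 8.24% the ETS motif. The matches are given as a description of the sequence, without any statement on binding.

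FLT3 (GRCh38, chr13:28003274-28100592, minus strand) was the most abundant receptor tyrosine kinase per length of transcript. In RPMI its level was 208, 213 and 206 CPM with vehicle and 465, 448 and 449 CPM with quizartinib. In hBMSC-CM it was 110, 117 and 113 CPM with vehicle and 162, 157 and 151 CPM with quizartinib. The 4 groups did not overlap, and every library from hBMSC-CM lay below every library from RPMI, with or without the drug. The order of the means was 454 ± 9.42 CPM for quizartinib in RPMI, 209 ± 3.43 CPM for vehicle in RPMI, 157 ± 5.87 CPM for quizartinib in hBMSC-CM and 113 ± 3.34 CPM for vehicle in hBMSC-CM. Each neighbour in this order differed by edgeR's quasi-likelihood test, with p adjusted by Benjamini-Hochberg over all tested genes, which is the test behind every adjusted p below, at a threshold of 0.05. FLT3 rose 2.17-fold with quizartinib in RPMI (log2 fold change 1.116, SE 0.0407, adjusted p = 3.86e-16) and 1.39-fold in hBMSC-CM (0.47, SE 0.0421, adjusted p = 3.79e-09). Against RPMI, the level in hBMSC-CM was 1.85-fold lower with vehicle (log2 fold change -0.89, SE 0.0419, adjusted p = 2.38e-12) and 2.89-fold lower with quizartinib (-1.53, SE 0.0413, adjusted p = 1.39e-17). The FLT3 level was lower in drug-treated cells in hBMSC-CM than in untreated cells in RPMI, with a log2 difference of -0.42 (adjusted p = 2.13e-08). The interaction, the log2 effect of quizartinib in hBMSC-CM minus that in RPMI, was -0.65 (SE 0.0583, adjusted p = 1.17e-08).

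CSF1R (chr5:150053291-150113372, minus strand), the receptor for the macrophage growth factors CSF1 and IL-34, rose with quizartinib in both media, and its levels with the drug overlapped between them. The libraries gave 27.4, 20.4 and 25.6 CPM with vehicle and 95.9, 103 and 98.9 CPM with quizartinib in RPMI. In hBMSC-CM they gave 35.7, 35.0 and 29.3 CPM with vehicle and 86.2, 97.5 and 101 CPM with quizartinib. All libraries with quizartinib lay above all those with vehicle. The rise was 4.05-fold in RPMI (log2 fold change 2.02, SE 0.0853, adjusted p = 4.78e-15) and 2.84-fold in hBMSC-CM (1.51, SE 0.0832, adjusted p = 2.28e-12). With vehicle, CSF1R exceeded its RPMI level 1.36-fold in hBMSC-CM (log2 fold change 0.45, adjusted p = 7.85e-04). With quizartinib the difference between media did not pass the test (log2 fold change -0.06, 95% interval -0.22 to 0.10, adjusted p = 0.466), and its sign turned without replicate 1 of quizartinib in hBMSC-CM (0.01). The interaction was -0.51 (SE 0.119, adjusted p = 0.00147).

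KIT (chr4:54657267-54740783, plus strand), the stem cell factor receptor, was close to the limit of detection. In RPMI, 7, 7 and 5 reads were counted with vehicle and 21, 26 and 21 with quizartinib. In hBMSC-CM the counts were 5, 2 and 6 with vehicle and 18, 13 and 13 with quizartinib. Every library with quizartinib held more reads than every library with vehicle. Among libraries with quizartinib, all those from hBMSC-CM lay below all those from RPMI (ratio of summed counts 0.67, 95% counting interval 0.45 to 0.99). The edgeR fit without the filter on low counts did not call this difference (log2 fold change -0.50, SE 0.312, adjusted p = 0.246). From the summed counts, scaled for depth, KIT was higher with quizartinib by a ratio of 3.88 in RPMI (95% counting interval 2.31 to 6.83, 68 against 19 reads) and of 3.57 in hBMSC-CM (1.89 to 7.22, 44 against 13 reads). In a fit without the filter on low counts, KIT rose in RPMI (log2 fold change 1.75, SE 0.373, adjusted p = 1.11e-05) and in hBMSC-CM (1.67, SE 0.445, adjusted p = 7.86e-04). There the interaction was -0.07 (SE 0.697, adjusted p = 1), so a difference in the response between media was not detectable at this depth.

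FLT3LG (chr19:49474207-49486231, plus strand), the ligand of FLT3, was hardly counted. The counts were 1, 1 and 2 with vehicle and 6, 8 and 3 with quizartinib in RPMI, and 4, 2 and 0 with vehicle and 5, 2 and 2 with quizartinib in hBMSC-CM. The groups overlapped in hBMSC-CM and did not in RPMI, where the ratio of the summed counts was 4.61 (95% counting interval 1.503 to 18.8, 17 against 4 reads). Without the filter on low counts the adjusted p was 0.0467 in RPMI and 0.761 in hBMSC-CM. These come from the same unfiltered fit as for KIT, and the value in RPMI lies close to the threshold of 0.05. A readthrough gene on the same strand covers the whole of FLT3LG in the annotation, so reads of the pair cannot be told apart with certainty.

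**Figure D1:**
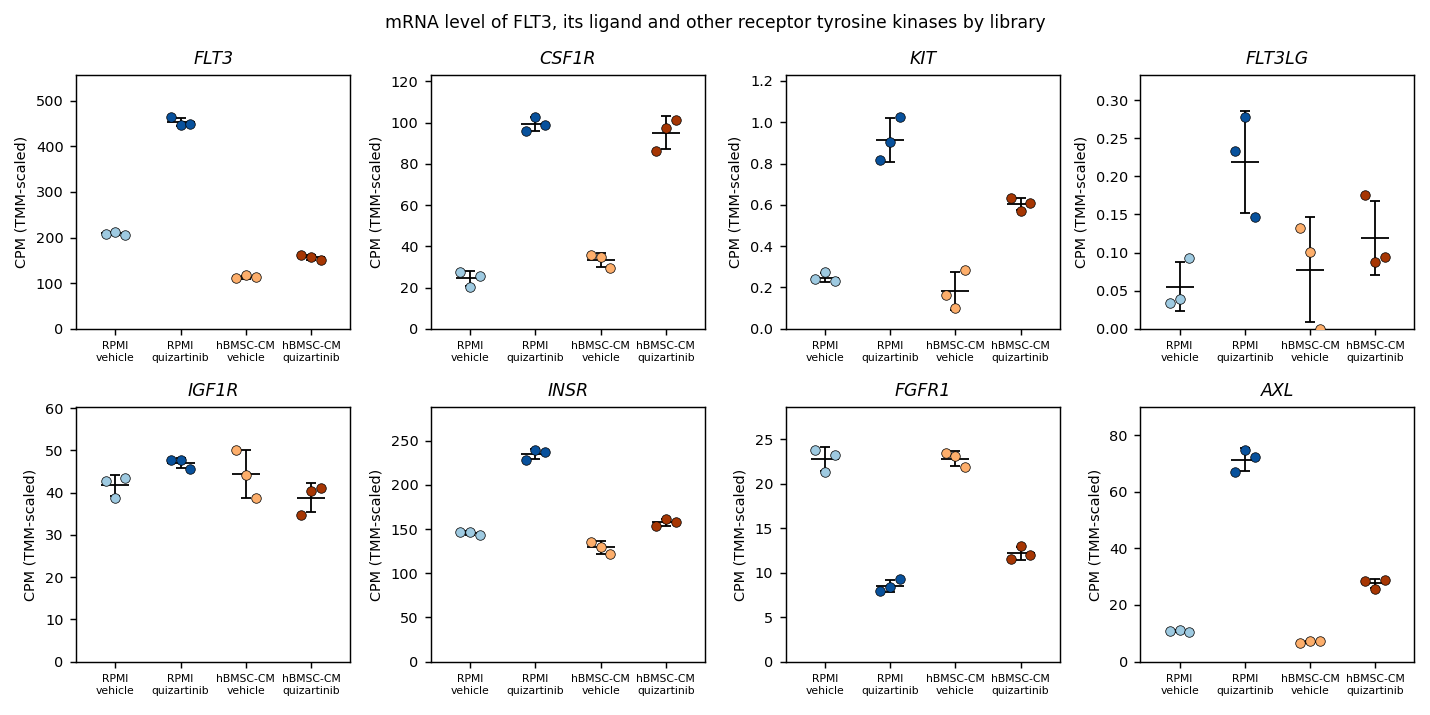
Level of the 8 genes in each of the 12 libraries, in TMM-scaled CPM on linear axes that start at 0 and differ between panels. Points are libraries, horizontal lines are means and error bars are SD (n = 3). FLT3 runs from 454 CPM with quizartinib in RPMI down to 113 CPM with vehicle in hBMSC-CM, and CSF1R meets near 95.1 to 99.2 CPM with the drug in both media. IGF1R overlaps between treatments in hBMSC-CM and between media with vehicle, but not between treatments in RPMI or between media with quizartinib.

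AXL (chr19:41219223-41261766, plus strand), a receptor of the TAM family that binds GAS6, showed the largest fold difference with quizartinib of the 6 tested receptors. It was 10.7, 11.2 and 10.6 CPM with vehicle and 66.9, 74.9 and 72.4 CPM with quizartinib in RPMI. In hBMSC-CM it was 6.60, 7.16 and 7.31 CPM with vehicle and 28.6, 25.8 and 28.7 CPM with quizartinib. The 4 groups did not overlap. AXL rose 6.59-fold in RPMI (log2 fold change 2.72, SE 0.0658, adjusted p = 5.49e-19) and 3.97-fold in hBMSC-CM (1.99, SE 0.0765, adjusted p = 8.98e-15). In hBMSC-CM it was 1.55-fold lower than in RPMI with vehicle (log2 fold change -0.63, adjusted p = 1.00e-05) and 2.58-fold lower with quizartinib (-1.37, adjusted p = 1.85e-14). The interaction was -0.73 (SE 0.105, adjusted p = 8.17e-06).

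INSR (chr19:7112255-7294414, minus strand), the insulin receptor, followed the same order of groups as AXL with smaller differences. Its values were 147, 146 and 143 CPM with vehicle and 229, 240 and 237 CPM with quizartinib in RPMI, and 136, 130 and 122 CPM with vehicle and 154, 161 and 158 CPM with quizartinib in hBMSC-CM. The groups did not overlap. INSR rose 1.62-fold with quizartinib in RPMI (log2 fold change 0.69, SE 0.0432, adjusted p = 3.80e-12) and 1.22-fold in hBMSC-CM (0.29, SE 0.0439, adjusted p = 8.23e-06), with an interaction of -0.41 (SE 0.0615, adjusted p = 1.58e-05). Against RPMI, it was lower in hBMSC-CM by 1.49-fold with quizartinib (adjusted p = 1.70e-10) and by 1.13-fold with vehicle (adjusted p = 0.00528). The 2 middle groups, quizartinib in hBMSC-CM and vehicle in RPMI, differed by a log2 value of 0.12 (adjusted p = 0.0264). That call was lost without any 1 of the vehicle libraries in RPMI or without replicate 2 or 3 of quizartinib in hBMSC-CM (log2 values of 0.10 to 0.12, adjusted p up to 0.0907).

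IGF1R (chr15:98648539-98964530, plus strand), the receptor of insulin-like growth factor 1, moved least. It was 42.8, 38.8 and 43.5 CPM with vehicle and 47.8, 47.7 and 45.6 CPM with quizartinib in RPMI. In hBMSC-CM it was 50.2, 44.2 and 38.8 CPM with vehicle and 34.8, 40.4 and 41.1 CPM with quizartinib. The mean was highest with quizartinib in RPMI (47.03 ± 1.27 CPM) and lowest with quizartinib in hBMSC-CM (38.8 ± 3.48 CPM), with vehicle in hBMSC-CM (44.4 ± 5.68 CPM) and vehicle in RPMI (41.7 ± 2.53 CPM) between them. No neighbours in this order passed the test (adjusted p = 0.356, 0.362 and 0.239 from the top). The first pair became a call with upper-quartile factors (log2 value -0.21, adjusted p = 0.0177) or library size (-0.18, adjusted p = 0.039). It also became one without replicate 1 of vehicle in hBMSC-CM (-0.17, adjusted p = 0.0411). The log2 fold change with quizartinib was 0.17 in RPMI (95% interval 0.01 to 0.34, adjusted p = 0.0439) and of -0.21 in hBMSC-CM (-0.37 to -0.04, adjusted p = 0.0261), where the groups overlapped. The call in RPMI was lost without replicate 1 or 2 of either RPMI group or without replicate 2 of vehicle in hBMSC-CM (log2 fold change 0.12 to 0.19, adjusted p 0.0558 to 0.189). That in hBMSC-CM was lost without replicate 1 of vehicle there (-0.10, adjusted p = 0.253) or replicate 1 of quizartinib there (-0.13, adjusted p = 0.160). With quizartinib, IGF1R was 1.22-fold below its RPMI level in hBMSC-CM (log2 fold change -0.28, SE 0.0780, adjusted p = 0.00301), and the interaction was -0.38 (SE 0.110, adjusted p = 0.00784). With vehicle the difference between media was 0.10 (95% interval -0.06 to 0.26, adjusted p = 0.362).

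FGFR1 (chr8:38400215-38468834, minus strand), a fibroblast growth factor receptor, fell with the drug in both media. The libraries gave 23.8, 21.3 and 23.3 CPM with vehicle and 7.95, 8.34 and 9.28 CPM with quizartinib in RPMI. In hBMSC-CM they gave 23.5, 23.1 and 21.9 CPM with vehicle and 11.6, 12.99 and 11.997 CPM with quizartinib. Libraries with quizartinib lay below all those with vehicle, and the vehicle groups of the 2 media overlapped. FGFR1 was 2.69-fold lower with quizartinib in RPMI (log2 fold change -1.43, SE 0.0780, adjusted p = 3.85e-13) and 1.88-fold lower in hBMSC-CM (-0.91, SE 0.0748, adjusted p = 1.06e-09). With quizartinib its level was 1.43 times that of RPMI in hBMSC-CM (log2 fold change 0.52, adjusted p = 1.51e-05), and the interaction was 0.52 (SE 0.109, adjusted p = 6.20e-04). With vehicle the media differed by less than the spread between replicates (log2 fold change 0.004, 95% interval -0.14 to 0.15, adjusted p = 0.976), and this sign turned under several settings. The span of LETM2, introns included, covers 900 bases of FGFR1 exons on the opposite strand. Whether these bases lie in exons of LETM2 was not examined, and the sources used here do not give whether counting was stranded. LETM2 stood at 6.98 ± 0.301 CPM with vehicle and 5.96 ± 0.578 CPM with quizartinib in RPMI (log2 fold change -0.23, adjusted p = 0.0430), a call lost in 10 of 21 alternatives (adjusted p up to 0.252), among them leaving out replicate 1 or 2 of vehicle or 2 or 3 of quizartinib in RPMI or replicate 3 of quizartinib in hBMSC-CM (-0.17 to -0.22).

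The calls of the 6 tested members are set here beside those of all tested genes. With quizartinib in RPMI, 5 members were higher and 1 was lower, all 6 of those tested, where 79.3% of all tested genes were called, 40.1% higher and 39.2% lower. In hBMSC-CM, 4 were higher and 2 were lower, against 67.1% of all genes called. The comparisons between media reuse the libraries of these comparisons. With quizartinib, 1 member was higher and 4 were lower in hBMSC-CM relative to RPMI, against 69.8% of all genes called. With vehicle, 1 was higher and 3 were lower, against 32.1% of all genes called. The interaction passed in 6 of 6, negative in 5 and positive in FGFR1, against 45.2% of all genes called, of which 26.1% were positive and 19.2% negative. Groups did not overlap for 6 of 6 members with quizartinib in RPMI and for 5 in hBMSC-CM, against 81.1% and 68.4% of all tested genes, and for 5 between media with quizartinib and 4 with vehicle, against 71.5% and 44.6%. Of the comparisons across both factors, quizartinib in hBMSC-CM against vehicle in RPMI gave 3 higher and 2 lower, with 62.1% of all genes called, and vehicle in hBMSC-CM against quizartinib in RPMI gave 1 higher and 4 lower, with 82.5%. The members' median log2 fold change was 0.90 with quizartinib in RPMI and 0.38 in hBMSC-CM, and the median over all tested genes was 0.02 and 0.01.

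**Figure D2:**
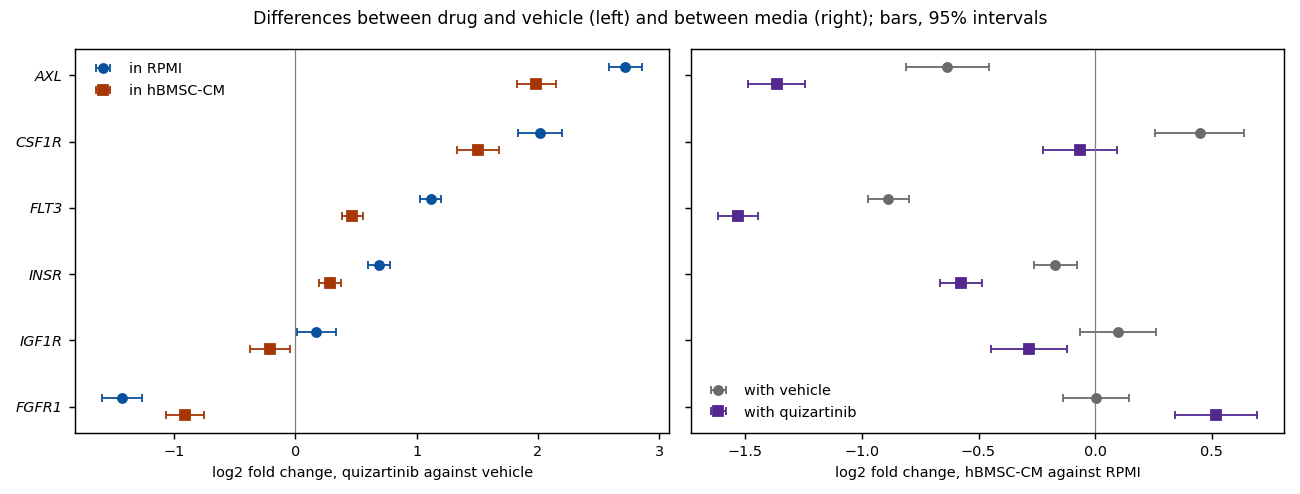
Log2 fold change of the 6 tested receptors for quizartinib against vehicle in each medium (left) and for hBMSC-CM against RPMI with each treatment (right), with 95% intervals from the edgeR fit. In the left panel AXL, CSF1R, FLT3 and INSR lie above 0 in both media and nearer to 0 in hBMSC-CM, and FGFR1 lies below 0. In the right panel FLT3, AXL and INSR lie below 0, further so with quizartinib.

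Levels of different receptors were compared as CPM per kb of the canonical transcript, a relative measure that does not give RNA per cell. Over the 57 receptor tyrosine kinases in the table, 12 were tested, 34 had a count and fell below the filter, and 11 had no count. The sum of all 57 was 108 ± 0.606 CPM per kb with vehicle and 209 ± 1.41 CPM per kb with quizartinib in RPMI, and 86.6 ± 1.85 and 114 ± 1.40 CPM per kb in hBMSC-CM. FLT3 made up 50.5 ± 1.10% of this sum with vehicle and 56.7 ± 1.27% with quizartinib in RPMI, but 34.2 ± 0.924% and 36.0 ± 1.58% in hBMSC-CM. CSF1R went from 5.91% to 12.4% with quizartinib in RPMI, and from 10.1% to 21.8% in hBMSC-CM. INSR stayed between 11.9% and 15.8% in all 4 groups, and AXL went from 2.12% to 7.23% in RPMI and from 1.72% to 5.15% in hBMSC-CM. In every group, the member receptors together held between 70.6% and 90.8% of the sum.

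**Figure D3:**
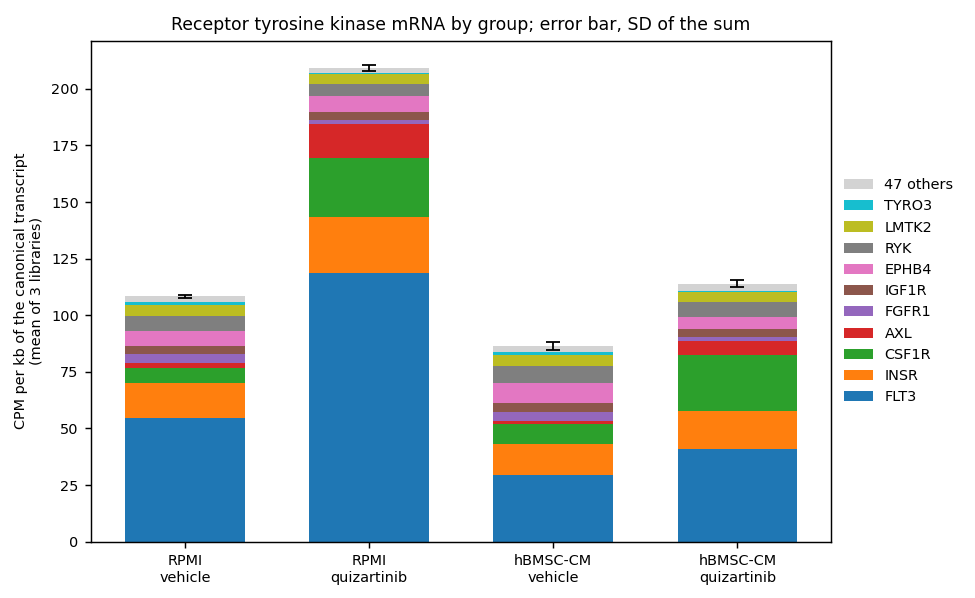
Summed receptor tyrosine kinase mRNA in each group, as mean CPM per kb of the canonical transcript over 3 libraries, stacked by receptor with the SD of the sum as error bar. The sum is highest with quizartinib in RPMI (209) and lowest with vehicle in hBMSC-CM (86.6), with FLT3 as the largest block in each column.

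Among the tested receptors that are not members, EPHB4, a receptor for ephrin B2, did not pass the test with quizartinib in RPMI (log2 fold change 0.06, SE 0.0663, adjusted p = 0.443) and fell in hBMSC-CM (-0.65, adjusted p = 3.68e-08), with an interaction of -0.70 (adjusted p = 3.40e-06). RYK, a WNT-binding receptor without kinase activity, fell with quizartinib by 0.30 on the log2 scale in RPMI and by 0.24 in hBMSC-CM (adjusted p = 7.91e-04 and 0.00483). In hBMSC-CM that call was lost with upper-quartile factors or library size (adjusted p = 0.0526 and 0.0897). LMTK2, a membrane kinase, had log2 fold changes of -0.15 and -0.14 (adjusted p = 0.0194 and 0.0391), calls that were lost in 5 and 9 of 21 alternatives (adjusted p up to 0.425 and 0.620). In RPMI they included leaving out replicate 3 of either group (-0.13 without that of vehicle and -0.12 without that of quizartinib). In hBMSC-CM they included leaving out replicate 1 of vehicle (-0.08), replicate 1 or 3 of quizartinib (-0.11 and -0.15) or replicate 2 of quizartinib in RPMI (-0.14). Over the 12 tested receptors, 5 rose, 6 fell and 1 was not called with quizartinib in RPMI (median log2 fold change -0.05), and the same numbers held in hBMSC-CM (median -0.17). Of all tested genes, 40.1% rose and 39.2% fell in RPMI, and 33.4% and 33.7% did so in hBMSC-CM. The 12 include the 6 members counted above, which gave all 5 rises in RPMI.

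TYRO3, the sister receptor of AXL, is named here after its values were seen, since it fell outside the rule by its mean level. It moved opposite to AXL, from 10.7 ± 0.590 CPM with vehicle to 2.24 ± 0.178 CPM with quizartinib in RPMI (log2 fold change -2.25, SE 0.116, adjusted p = 1.38e-13) and from 11.9 ± 1.05 to 5.596 ± 0.394 CPM in hBMSC-CM (-1.08, SE 0.0983, adjusted p = 4.88e-09). Its interaction was 1.16 (adjusted p = 3.78e-06), also of the opposite sign to that of AXL.

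Of 17 genes listed as ligands of the member receptors or their families, only GAS6, which binds AXL and TYRO3, and PROS1, a TAM family ligand known to bind TYRO3 and MERTK rather than AXL, were tested. The other 15 included 5 with no count in any library, and none of them reached more than 15 counts in a library. GAS6 was 63.8 ± 3.31 CPM with vehicle and fell to 37.8 ± 2.68 CPM with quizartinib in RPMI (log2 fold change -0.76, SE 0.0530, adjusted p = 2.58e-11), but rose from 87.1 ± 0.589 to 118 ± 2.93 CPM in hBMSC-CM (0.43, SE 0.0487, adjusted p = 1.17e-07). The interaction was 1.19 (SE 0.0720, adjusted p = 2.27e-11), and with quizartinib GAS6 exceeded its RPMI level in hBMSC-CM by a log2 value of 1.64 (adjusted p = 1.41e-16). PROS1, which encodes protein S, rose in both media, from 11.98 ± 0.573 to 20.3 ± 0.920 CPM in RPMI (log2 fold change 0.76, adjusted p = 1.21e-09) and from 14.9 ± 0.383 to 21.5 ± 0.263 CPM in hBMSC-CM (0.53, adjusted p = 4.05e-07), and its interaction did not pass the test (-0.22, SE 0.0940, adjusted p = 0.0572).

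**Figure D4:**
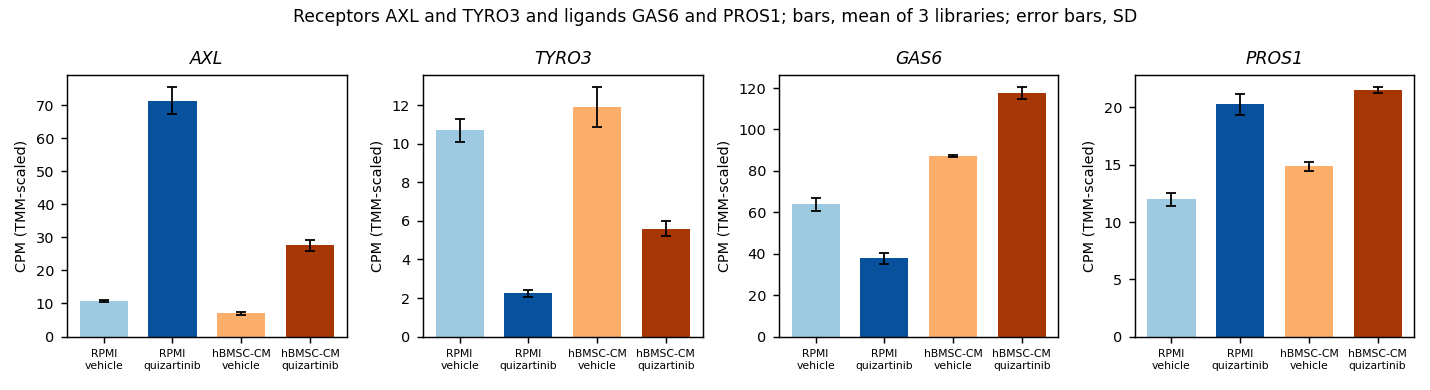
Level of the TAM family receptors AXL and TYRO3 and of the TAM ligands GAS6 and PROS1 in each group, in TMM-scaled CPM on axes that start at 0 and differ between panels. Bars are means of 3 libraries and error bars are SD. AXL and TYRO3 move in opposite directions with quizartinib, and GAS6 falls to 37.8 CPM in RPMI and rises to 118 CPM in hBMSC-CM.

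Adaptors and cytoplasmic kinases next to the receptors changed in both directions, as all tested genes did. For this list and those below, the shares over all tested genes with quizartinib were 40.1% higher and 39.2% lower in RPMI. In hBMSC-CM they were 33.4% and 33.7%. Between media with quizartinib they were 35.5% and 34.3%, and for the interaction 26.1% were positive and 19.2% negative. Of 36 listed, 33 were tested, and with quizartinib in RPMI 18 rose, 10 fell and 5 were not called (median log2 fold change 0.21, against 0.02 over all tested genes). In hBMSC-CM, 20 rose, 7 fell and 6 were not called (median 0.17). DOK3, an inhibitory adaptor, rose by a log2 value of 1.32 in RPMI and of 0.70 in hBMSC-CM (adjusted p = 1.50e-12 and 4.69e-07), with an interaction of -0.62 (adjusted p = 1.91e-04). IRS2, an adaptor of the insulin and IGF1 receptors, rose by 0.93 in RPMI (adjusted p = 1.55e-10) and by 0.21 in hBMSC-CM (adjusted p = 0.0146), with an interaction of -0.72 (adjusted p = 7.73e-06). The call in hBMSC-CM was lost without replicate 2 or 3 of quizartinib there (0.17 in both, adjusted p = 0.0652 and 0.0799). IRS1, another adaptor of these receptors, is named after its values were seen and averaged 2.00 CPM. It went the other way, with log2 fold changes of -1.08 in RPMI and -0.59 in hBMSC-CM (adjusted p = 1.42e-04 and 0.0199). YES1, a SRC family kinase, had a log2 fold change of -0.79 in RPMI and -0.29 in hBMSC-CM (adjusted p = 1.03e-09 and 5.92e-04). GAB2, a docking protein that carries receptor signals to PI3K, exceeded its RPMI level in hBMSC-CM with quizartinib (0.64, adjusted p = 1.21e-10) and with vehicle (0.50, adjusted p = 1.22e-07). Between media with quizartinib, 15 of the 33 were higher, 13 lower and 5 not called (median 0.09), and the interaction passed with 9 positive and 10 negative (median -0.01).

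Genes that attenuate receptor signals also went both ways, as all tested genes did (40.1% higher and 39.2% lower with quizartinib in RPMI). Of 27 listed, 21 were tested, with 10 higher, 9 lower and 2 not called for quizartinib in RPMI (median log2 fold change 0.13) and 11 higher, 6 lower and 4 not called in hBMSC-CM (median 0.15). PTPN6, which encodes the phosphatase SHP-1, fell from 317 ± 8.31 to 73.8 ± 1.68 CPM in RPMI (log2 fold change -2.10, SE 0.0447, adjusted p = 8.46e-20) and from 328 ± 8.96 to 229 ± 9.83 CPM in hBMSC-CM (-0.52, SE 0.0420, adjusted p = 8.66e-10). Its interaction was 1.59 (SE 0.0607, adjusted p = 2.74e-14), and with vehicle it did not differ between media beyond the test's threshold (0.05, SE 0.0416, adjusted p = 0.406). The ubiquitin ligases CBLB and CBL, which mark activated receptors for degradation, rose in RPMI by log2 values of 1.47 and 0.58 (adjusted p = 7.77e-13 and 2.47e-09) and in hBMSC-CM by 0.99 and 0.18 (adjusted p = 5.02e-09 and 0.00660). UBASH3B, a phosphatase that counteracts tyrosine kinases, had a log2 fold change of -0.83 in RPMI (adjusted p = 7.04e-11) and of -0.11 in hBMSC-CM (adjusted p = 0.0964), with an interaction of 0.72 (adjusted p = 4.66e-07). GRB10, an adaptor that binds the insulin and IGF1 receptors and dampens their signal, fell in both media (log2 fold change -0.91 and -0.97, adjusted p = 1.13e-10 and 1.15e-10), with an interaction of -0.06 (SE 0.0986, adjusted p = 0.627). The list also holds PTPN11, named after its values were seen, which encodes SHP-2 and is best known for passing receptor signals on. Its log2 fold change was -0.55 in RPMI (adjusted p = 1.67e-10). Between media with quizartinib, 8 of the 21 were higher, 5 lower and 8 not called.

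Of 16 genes of receptor folding, cleavage and shedding, 15 were tested, and with quizartinib in RPMI 6 rose and 9 fell (median log2 fold change -0.20), while in hBMSC-CM 5 rose, 6 fell and 4 were not called (median -0.07). HSP90AA1, which encodes a chaperone that kinases depend on, fell from 1323 ± 162 to 431 ± 12.2 CPM in RPMI (log2 fold change -1.62, adjusted p = 2.56e-11) and from 1439 ± 296 to 762 ± 97.3 CPM in hBMSC-CM (-0.92, adjusted p = 3.42e-07), with an interaction of 0.70 (adjusted p = 9.82e-04). FURIN, the protease that cleaves the insulin and IGF1 receptor precursors, rose by a log2 value of 1.31 in RPMI and of 0.99 in hBMSC-CM (adjusted p = 1.69e-14 and 7.12e-12). ADAM17, a protease that sheds the outer part of CSF1R and other receptors, rose by 0.55 in RPMI (adjusted p = 3.62e-11) and had a log2 fold change of 0.10 in hBMSC-CM (adjusted p = 0.0323). The latter call was lost in 8 of 21 alternatives (adjusted p up to 0.395), among them leaving out any 1 vehicle library or replicate 1 or 2 of quizartinib in hBMSC-CM (0.08 to 0.11). ADAM15, another membrane protease, fell in both media (log2 fold change -1.34 and -0.63, adjusted p = 3.26e-15 and 1.46e-09).

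Around IGF1R and INSR, 22 genes of the IGF and insulin system were listed and 13 tested. With quizartinib in RPMI 7 rose and 6 fell (median log2 fold change 0.17), and in hBMSC-CM 5 rose, 5 fell and 3 were not called (median 0.06). The interaction was called in 7 of the 13, negative in 6, among them INSR, IGF1R and IRS2. Over all tested genes it was called in 45.2% and negative in 19.2%. INSR and IGF1R are members already counted above, and IRS1, IRS2, GRB10 and FURIN are also in the lists above, so these counts are not independent. The negative interaction of IGF2BP2 (-0.21) lost its call in 5 of 20 alternatives (adjusted p up to 0.227). IGF2BP2, which binds RNA and is in the list for its name only, rose by a log2 value of 0.71 in RPMI (adjusted p = 4.09e-11) and of 0.50 in hBMSC-CM (adjusted p = 4.55e-08).

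**Figure D5:**
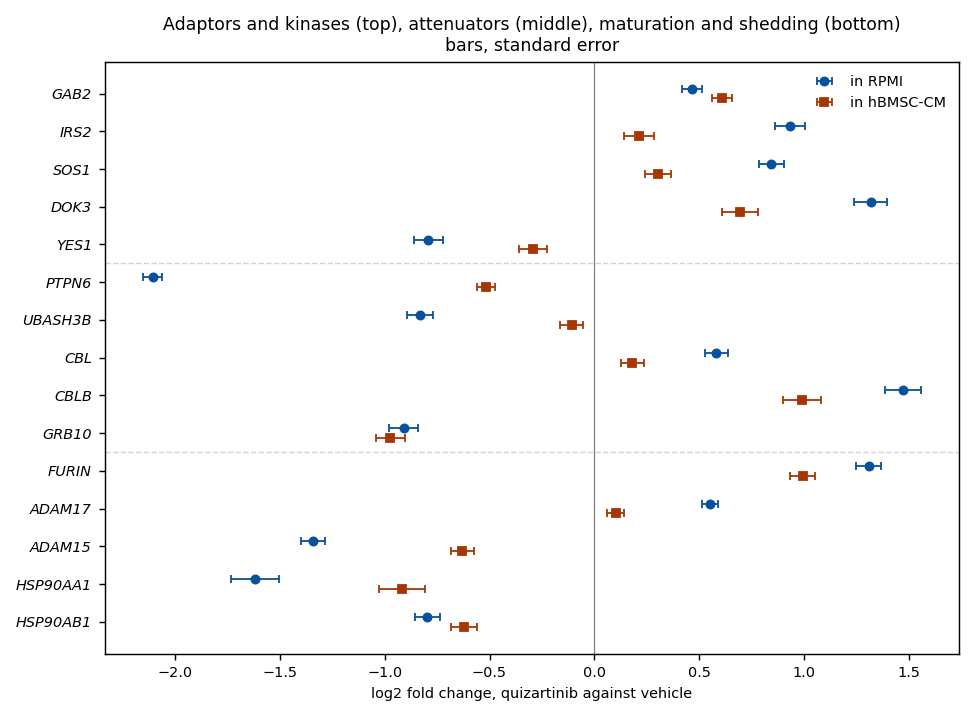
Log2 fold change for quizartinib against vehicle in RPMI (circles) and in hBMSC-CM (squares), with standard errors, for adaptors and kinases (top), genes of receptor attenuation (middle) and genes of receptor maturation and shedding (bottom). PTPN6 lies at -2.10 in RPMI and at -0.52 in hBMSC-CM, whereas GRB10 lies near the same value in both.

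The genes whose levels followed a receptor most closely were ranked by the root mean square difference of their centred log2 CPM over the 12 libraries, among 9288 genes that averaged 10 CPM or more. The libraries share their groups and depth, so this is a description of the pattern. For FLT3 the nearest was LRMP, with a difference of 0.0730 and means of 84.7 and 199 CPM with vehicle and quizartinib in RPMI and 49.6 and 72.8 CPM in hBMSC-CM. SPIB (0.128), ITGAL (0.139), HDAC5 (0.161) and PAN3 (0.186) came next. PAN3 is the next protein-coding gene beyond the start of FLT3, on the opposite strand, and begins 37914 bases away (chr13:28138506-28295335). Its log2 fold change with quizartinib was 0.87 in RPMI (SE 0.0529, adjusted p = 2.52e-12) and 0.32 in hBMSC-CM (SE 0.0552, adjusted p = 2.87e-05), and its interaction was -0.54 (SE 0.0763, adjusted p = 6.16e-06). The nearest gene to INSR was IKZF1 (0.0360), and the nearest to IGF1R was ATXN2 (0.0528).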

How the data were processed

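RNA-seq was done on 12 libraries of MOLM-13 cells in 4 groups of 3, assigned from the sample labels. The authors trimmed reads with BBDuk, aligned them to hg38 (Ensembl) and counted them per gene with STAR 2.6.0a, and deposited raw counts, not normalized, in which identifiers with the same gene name are summed. Limma is also named in the submitters' processing notes. Use of strand in counting is not given in the sources used here. No column was left without a sample.

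From the deposited counts, genes were kept where both the mean count and the mean CPM reached 1. After TMM scaling, the quasi-likelihood test of edgeR 4.0.16 (glmQLFit, glmQLFTest, R 4.3.3) was run in 1 model of 4 group means with 7 contrasts. P-values were two-sided and adjusted over all tested genes by Benjamini-Hochberg, and 0.05 was the threshold. KIT and FLT3LG were also fitted without the filter, and their summed counts were compared with exact binomial intervals of 95%. Alternatives were DESeq2 1.42.0, limma-voom (3.58.1), other scaling factors, filters and groups, and leaving out every library once. The scripts were tested on simulated counts. Same-numbered libraries did not deviate together (18 pairs, correlation -0.227 to 0.0979), so no pairing was used.

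Named from each gene list were the 3 largest called increases and decreases with a mean of at least 10 CPM in each of 3 contrasts, all tested ligands and receptors of at least 10 CPM, with fewer given here. The members and the lists, written from general knowledge, were chosen with earlier results of these data known. Positions and canonical transcript lengths are from GENCODE 44 (GRCh38), whose release differs from the authors' annotation of that build. Promoters were available for 7 of the 8 genes and were matched by symbol to RefSeq. LMTK3 was not analysed here, and 1 gene of the adaptor and kinase list is not reported here by name.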

Additional observations from a re-analysis of the deposited data

Results flagged for a closer look

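The effect of quizartinib differed between RPMI and hBMSC-CM in each of the 6 tested receptors, by the interaction term of the edgeR fit with Benjamini-Hochberg adjustment. The log2 difference was -0.65 for FLT3, -0.51 for CSF1R, -0.38 for IGF1R, -0.41 for INSR, 0.52 for FGFR1 and -0.73 for AXL, and 45.2% of all tested genes passed the same test. Of the 6, FLT3, CSF1R, INSR, FGFR1 and AXL kept the direction of their drug effect in hBMSC-CM with a smaller size, and IGF1R had a positive log2 value in RPMI and a negative one in hBMSC-CM, with drug effects whose calls were lost without single libraries. Groups of 3 were not searched for outlying samples.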

How the results depend on the processing

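Of 876 log2 fold changes of the 6 tested receptors under alternative settings, 841 kept direction and side of the threshold, 20 lost the call, 3 gained one and 12 reversed. All 6 interactions passed in every alternative fit. A fold of at least 1.5 lowered the receptors called from 6 to 3 for quizartinib in hBMSC-CM, from 5 to 2 and from 4 to 2 between media with quizartinib and with vehicle, from 6 to 2 for the interaction, and from 5 to 3 for quizartinib in hBMSC-CM against vehicle in RPMI. With each library left out in turn, the receptors called were 5 to 6 for quizartinib in each medium, 5 between media with quizartinib, 4 with vehicle, 6 for the interaction, 4 to 5 for quizartinib in hBMSC-CM against vehicle in RPMI and 5 to 6 for vehicle in hBMSC-CM against quizartinib in RPMI. The replicate block left 5 for quizartinib in RPMI (IGF1R 0.17, edgeR adjusted p = 0.0590), 6 in hBMSC-CM, 5 and 4 between media, 6 for the interaction and 5 for each of the other contrasts, and changed no other of these calls.

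No reversed value was a call. CSF1R between media with quizartinib became 0.0070 without replicate 1 of quizartinib in hBMSC-CM and 0.013 without the filter. IGF1R between media with vehicle became -0.0062 without replicate 1 of vehicle in hBMSC-CM (up to 0.18 without another library), and for vehicle in hBMSC-CM against quizartinib in RPMI it became 0.015 without replicate 3 of the former (down to -0.17 without another) and 0.031 without the filter. FGFR1 between media with vehicle became -0.024 with upper-quartile factors, -0.014 with library size, -0.000375 with only those groups, -0.044 without replicate 2 of vehicle in RPMI, -0.017 and -0.0040 without replicates 1 and 2 of vehicle in hBMSC-CM (up to 0.039 without another library), and -0.0038 with a filter at 5 CPM. The interaction of KIT, in fits without the filter that were chosen after seeing the data, became 0.0079 without replicate 3 of quizartinib in RPMI and 0.28 without replicate 3 of vehicle in hBMSC-CM. The cause was not tested. The call of IGF1R for quizartinib in hBMSC-CM was also lost with upper-quartile factors (-0.12), library size (-0.10), only the groups compared (-0.19, adjusted p = 0.0685) and a filter at 5 CPM (-0.16, adjusted p = 0.0790). That in RPMI was also lost with DESeq2 (0.17, adjusted p = 0.0512) and without the filter (0.07, adjusted p = 0.402). Upper-quartile factors moved the median of all genes by 0.102 for quizartinib in RPMI, and library size moved it by 0.104 in hBMSC-CM. There the share of higher among called genes went from 49.8% to 60.0% and 62.8%, and for quizartinib in hBMSC-CM against vehicle in RPMI it went from 49.2% to 62.1% with library size. For 44 other named genes, 3435 of 3512 values kept their call and none reversed.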

Other observations

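RET, the receptor of the GDNF family, and FGFR4 were tested and fell outside the rule for named genes, so they are given after their values were seen. RET was 5.87 ± 1.07 CPM with vehicle and 4.36 ± 0.718 CPM with quizartinib in RPMI (log2 fold change -0.41, edgeR adjusted p = 0.0123), and 7.28 ± 0.832 and 9.15 ± 0.609 CPM in hBMSC-CM (0.33, adjusted p = 0.0248). The call in RPMI was lost with upper-quartile factors (-0.31) and without replicate 3 of vehicle or replicate 1 of quizartinib there (-0.27 in both, adjusted p = 0.0965 and 0.0970), and that in hBMSC-CM without replicate 3 of vehicle or replicate 2 of quizartinib there (0.25 and 0.28, adjusted p = 0.0971 and 0.0837). The interaction of RET was 0.74 (SE 0.189, adjusted p = 0.00314). FGFR4 lay near 1 CPM, with 1.15 ± 0.385 CPM with vehicle and 0.330 ± 0.137 CPM with quizartinib in RPMI (log2 fold change -1.78, SE 0.367, adjusted p = 1.58e-04) and 1.70 ± 0.449 and 1.30 ± 0.233 CPM in hBMSC-CM (-0.41, SE 0.249, adjusted p = 0.153). Its interaction was 1.38 (SE 0.454, adjusted p = 0.0176), a call lost without replicate 3 of vehicle (1.14, adjusted p = 0.0529) or replicate 2 of quizartinib (1.02, adjusted p = 0.0906) in RPMI. TYRO3, RET and FGFR4 each had a positive interaction, as FGFR1 did, while FLT3, CSF1R, INSR, IGF1R, AXL and EPHB4 had a negative one. Those of RYK and LMTK2 did not pass the test (0.06 and 0.01, adjusted p = 0.67 and 0.92). Of all tested genes, 26.1% had a called positive interaction and 19.2% a called negative one.

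The stromal markers did not move together. COL1A1 was at 0.177 CPM with vehicle and 4.61 CPM with quizartinib in RPMI, and at 0.225 and 0.992 CPM in hBMSC-CM. It was highest with quizartinib in RPMI, as was TAGLN (6.19 CPM), the other tested stromal marker. Below the filter, PDGFRB was highest with quizartinib in hBMSC-CM (0.760 CPM) and FN1 with vehicle in RPMI (0.920 CPM).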
